A study of Mus musculus with 12 samples.

Results

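The 26S proteasome is the protease complex that degrades proteins marked with ubiquitin. Its subunit genes were taken as every row of the deposited count table whose symbol begins with Psm, a letter from a to g and a digit, without pseudogenes and without Psmc3ip, which is not a subunit. The rule used names and no measured value, and it found 41 of the 12145 genes in the table. They were 7 genes of the alpha ring (Psma), 7 of the constitutive beta ring (Psmb1 to Psmb7), the immunoproteasome gene Psmb10, 6 ATPases (Psmc), 13 non-ATPases (Psmd), 6 activators and an inhibitor together (Psme1, Psme2, Psme2b, Psme3, Psme4 and Psmf1) and 1 assembly chaperone (Psmg4). Other proteasome symbols, among them the immunoproteasome genes Psmb8 and Psmb9 and the chaperones Psmg1, Psmg2 and Psmg3, are not analysed here.

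RNA came from C57BL6 mouse cortical cultures, made from embryos of age E16.5-E17.5. Every culture had received lentivirus on day 6 in vitro, in 2 doses that added up to 2 infectious units per cell (MOI 2). The virus was either empty or carried miR-29c, a member of the miR-29 family. On day 14 in vitro the cultures went through 3 h of oxygen and glucose deprivation (OGD), a culture model of ischaemic stroke, with 4 h of recovery, or through a sham treatment with buffer rinses under normal oxygen. The 4 groups are called sham-empty and OGD-empty for the empty virus and sham-miR-29 and OGD-miR-29 for the other, with 3 labelled libraries each, and replicates with the same number were dissected on the same day. The labels name neither a promoter nor a target cell type for the virus. The mature sequence of mouse miR-29c is shown because it defines the treatment; capitals mark the seed (bases 2 to 8 from the 5′ end), and RefSeq (GRCm38.p6) places it at chr1:195037600-195037621 on the plus strand. The level of mature miR-29c was not analysed here.
mmu-miR-29c-3p: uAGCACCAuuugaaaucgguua

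In the proteasome, a barrel of stacked alpha and beta rings, the 20S core, holds the proteolytic sites inside. Psmb5, Psmb6 and Psmb7 encode the catalytic subunits, and the alpha ring gates the entrance. The 19S regulatory particle caps the core. Its ATPases unfold substrates and push them in, while some of its non-ATPases bind or remove ubiquitin chains. Classes here follow the gene symbol, so the non-ATPase class also holds Psmd9, which encodes a chaperone of the ATPase ring. Neurons depend on the complex for protein turnover at synapses, and loss of energy and oxidative damage both affect it.

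The libraries were shallow for nuclear genes. Total counts ran from 1337564 to 6616920 per library, but 57.6% to 84.1% of counts fell on mitochondrial rows, and the proteasome genes together received 683 to 4287 counts per library. The column of the third sham-empty sample did not hold read counts: it summed to 22859, its Spearman correlation with the other columns was 0.0438 to 0.0978 across genes, and 92.5% of its values equalled the number of same-strand annotated genes in each gene and the 10 kb downstream of it. It was left out, so sham-empty has 2 libraries. The mitochondrial share differed between libraries of 1 group, from 57.6% to 76.4% in OGD-empty and from 74.1% to 82.3% in OGD-miR-29. Markers of neurons were present in all 11 libraries, with a summed level of 583 to 1280 CPM (read counts scaled by library total), and astrocyte markers reached 37.9 to 52.7 CPM. Gfap, a defining astrocyte marker, is not analysed here.

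Counting also limits how far a value belongs to 1 gene. Adjacent genes often carried near-equal counts, and 37 of the 41 proteasome genes have another annotated gene, on either strand, within their span or the 10 kb after it. For 26 of them such a neighbour had at least 0.5 times their own count. For 5 the neighbours in the table had less (Psmb7, Psmd1, Psmd12, Psmd14 and Psme4). For 6 no neighbour is a row of the table that could be compared (Psma4, Psma6, Psmb6, Psmc6, Psmd5 and Psme3). The other 4, Psmb1, Psmc4, Psmd4 and Psmd7, have no annotated neighbour in this window. The window was chosen here: the region and the strand setting used for counting are not given in the sources used here.

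Per kilobase of annotated exon, the mean level over the 11 libraries was highest for Psmb4, a structural beta subunit, at 20.2 CPM per kb, then for Psmg4 at 16.8, Psma6 at 12.9 and Psmc5 at 12.1. The lowest was Psmd9, which encodes a chaperone of the ATPase ring, at 0.686 CPM per kb. Except for Psma6, whose neighbour could not be compared, these genes shared their regions with rows of like or higher summed counts: Pogz at 1.01 times for Psmb4, Slc22a23 at 1.97 times for Psmg4, Smarcd2 at 1.03 times for Psmc5 and Gm26745 at 3.02 times for Psmd9. Their places in this order are uncertain.

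Summed over the 41 genes, the level was lowest in OGD-empty and highest in OGD-miR-29. The sums were 679 and 706 CPM in the sham-empty libraries. They were 679, 596 and 751 CPM in sham-miR-29, in replicate order. OGD-empty gave 539, 583 and 553 CPM and OGD-miR-29 gave 788, 768 and 969 CPM. The 3 OGD-empty libraries lay below every other library, and the 3 OGD-miR-29 libraries lay above every other library. As a share of the counts outside mitochondrial rows, the genes took 0.217% to 0.262% in OGD-empty, 0.277% to 0.354% in the sham libraries and 0.361% to 0.409% in OGD-miR-29.

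**Figure D1:**
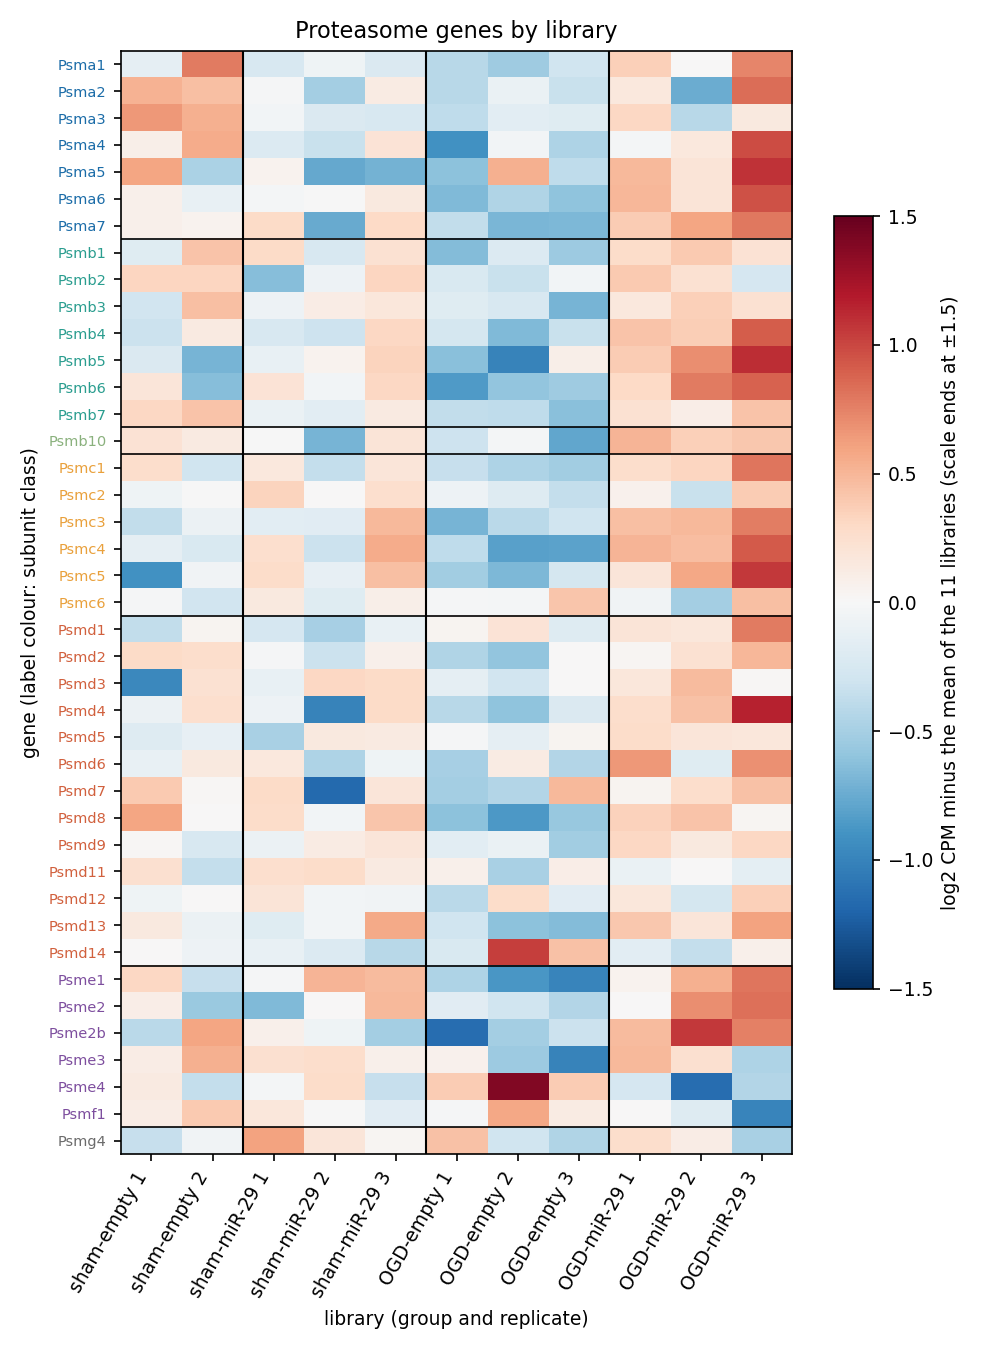
Level of each proteasome gene (rows, grouped by subunit class) in each of the 11 libraries (columns), as log2 CPM minus that gene's mean over the libraries; red is above and blue below the mean. Most core and ATPase genes are blue in the 3 OGD-empty columns and red in the OGD-miR-29 columns, while Psme4 is red in all 3 OGD-empty columns.

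Most calls came from the comparison of the viruses after OGD. In OGD-miR-29 against OGD-empty, 22 of the 41 genes were higher and 1, Psme4, was lower (edgeR quasi-likelihood test, Benjamini-Hochberg adjusted p under 0.05 over all 12119 genes tested). All 41 passed the filter on low counts. The 22 are 53.7% of the 41, whereas 17.2% of all genes tested were higher and 19.9% lower. The median log2 fold change was 0.74 for the proteasome genes and 0.02 for all genes, and 35 of the 41 values were above 0. In 25 genes every OGD-miR-29 library lay above every OGD-empty library and in 1 gene below it; over all genes the shares were 25.0% and 25.2%. These are relative levels in whole cultures, where fewer cells of a type and less RNA per cell cannot be told apart.

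**Figure D2:**
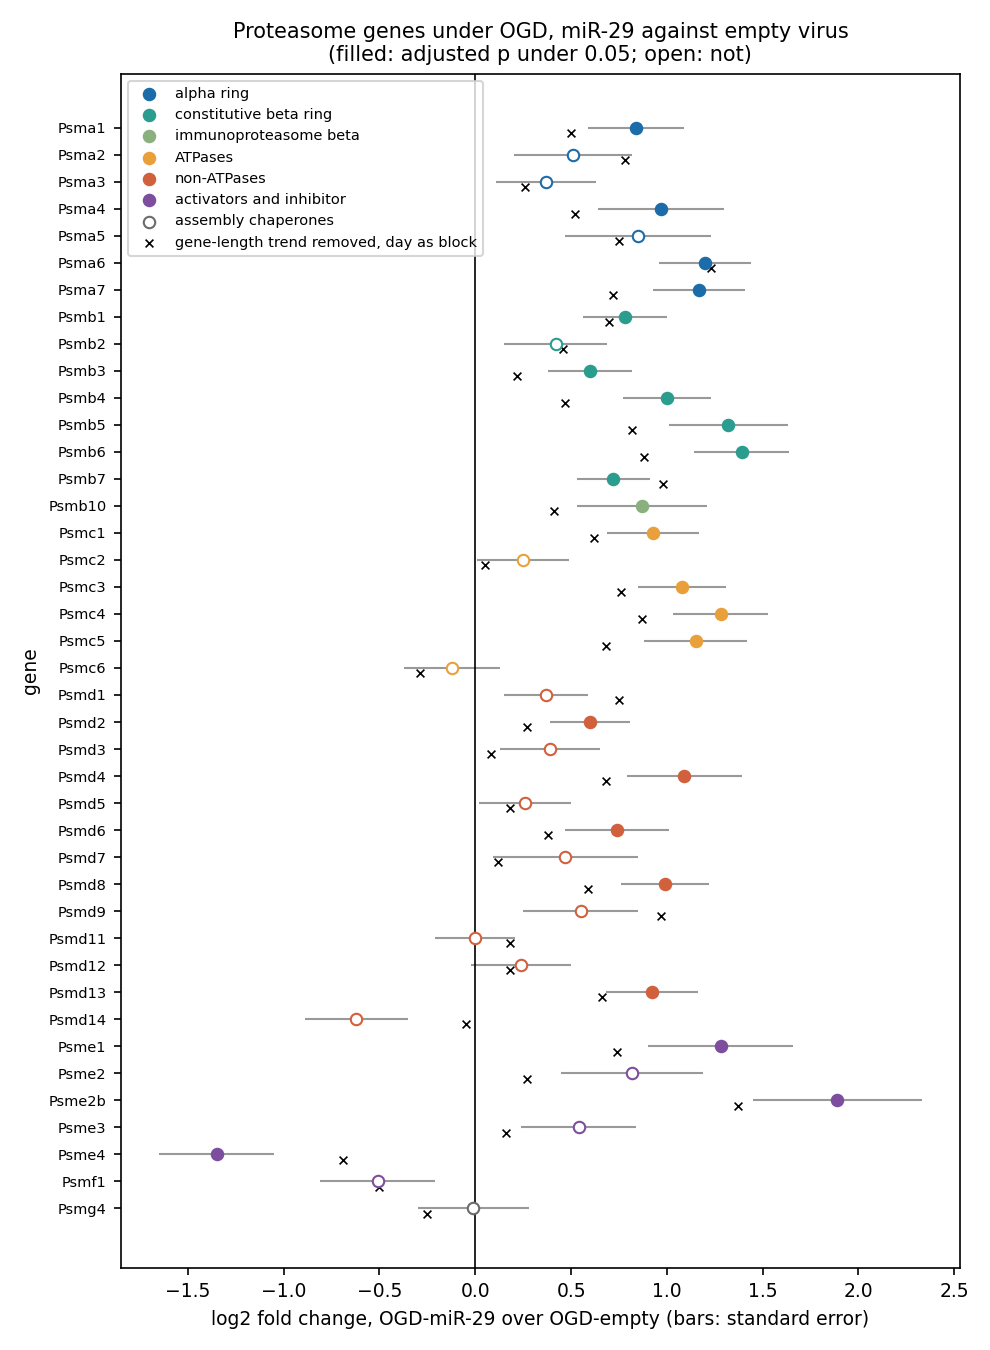
Log2 fold change of each proteasome gene in OGD-miR-29 over OGD-empty (circles; bars are standard errors; filled where the adjusted p was under 0.05), with the value after removal of the gene-length trend with dissection day as a block (crosses). Of the 41 circles, 35 lie right of 0, and Psme4 lies furthest left at -1.35.

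In the alpha ring, 4 of 7 genes were higher and the class median was 0.85. Psma6 (chr12:55384222-55418454, plus strand, GRCm38) stood at 9.27, 10.8 and 9.65 CPM in OGD-empty and at 21.5, 17.3 and 29.8 CPM in OGD-miR-29. Its sham values were 15.9 and 13.9 CPM with empty virus and 14.8, 15 and 16.7 CPM with miR-29. OGD-empty was thus below all sham libraries and OGD-miR-29 above them, with no overlap. The log2 fold change between the OGD groups was 1.20 ± 0.24 (SE; adjusted p = 0.00117). Psma7 read 23.2, 18.5 and 18.8 CPM in OGD-empty against 39.7, 46.1 and 52.9 CPM in OGD-miR-29. Its sham libraries spread from 17.7 to 37.3 CPM and overlapped OGD-empty. The change of 1.17 ± 0.24 (adjusted p = 0.00152) stood beside one of 0.92 in Lsm14b, the neighbour with 1.04 times its count. Psma1 held 11.3, 10.4 and 12.3 CPM in OGD-empty and 19.8, 15.4 and 26 CPM in OGD-miR-29, a change of 0.84 ± 0.25 (adjusted p = 0.0146). Its sham libraries were uneven, with 13.9 and 26.6 CPM under empty virus and 12.9, 14.6 and 13.1 CPM under miR-29. Psma4 was also higher at 0.97 (adjusted p = 0.0262), and Psma2, Psma3 and Psma5 had positive values from 0.37 to 0.85 that did not pass.

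Among the constitutive beta genes 6 of 7 were higher, all except Psmb2, with a class median of 0.78. The catalytic trio all rose. Psmb6, for the caspase-like site, read 8.96, 10.8 and 11.3 CPM in OGD-empty and 20.6, 29.1 and 31.2 CPM in OGD-miR-29, a change of 1.39 ± 0.25 (adjusted p = 0.000711). Sham values of Psmb6 were 18.9 and 10.4 CPM with empty virus and 19.3, 16.1 and 20.8 CPM with miR-29. Psmb5, for the chymotrypsin-like site that proteasome inhibitors mainly target, read 4.32, 3.16 and 7.5 CPM in OGD-empty and 9.37, 11.8 and 15.9 CPM in OGD-miR-29 (1.32 ± 0.31, adjusted p = 0.00337). In sham cultures it stood at 5.97 and 4.05 CPM with empty virus and at 6.45, 7.3 and 9 CPM with miR-29. All OGD-miR-29 libraries of Psmb5 lay above these, but only narrowly above the highest sham-miR-29 library, and that comparison did not pass. The sham-miR-29 libraries in turn lay above those of sham-empty. A microRNA row within its region, Mir686, carried 0.72 times its count and was higher too (adjusted p = 0.00298). Psmb7 (chr2:38588036-38644087, minus strand), for the trypsin-like site, differed in pattern: 40.8 and 44 CPM in sham-empty, 30.3, 29.2 and 35.7 CPM in sham-miR-29, 25.2, 24.8 and 20.9 CPM in OGD-empty and 38.4, 35.1 and 44.2 CPM in OGD-miR-29. For Psmb7 the OGD-empty libraries were below all others, and OGD-miR-29 overlapped the sham libraries. The change between the OGD groups was 0.72 ± 0.19 (adjusted p = 0.00772). Nek6, a kinase gene in the same region with 0.49 times its count, changed by 0.68 (adjusted p = 0.0216), and the log counts of Psmb7 and Nek6 correlated at 0.97 over the 11 libraries.

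**Figure D3:**
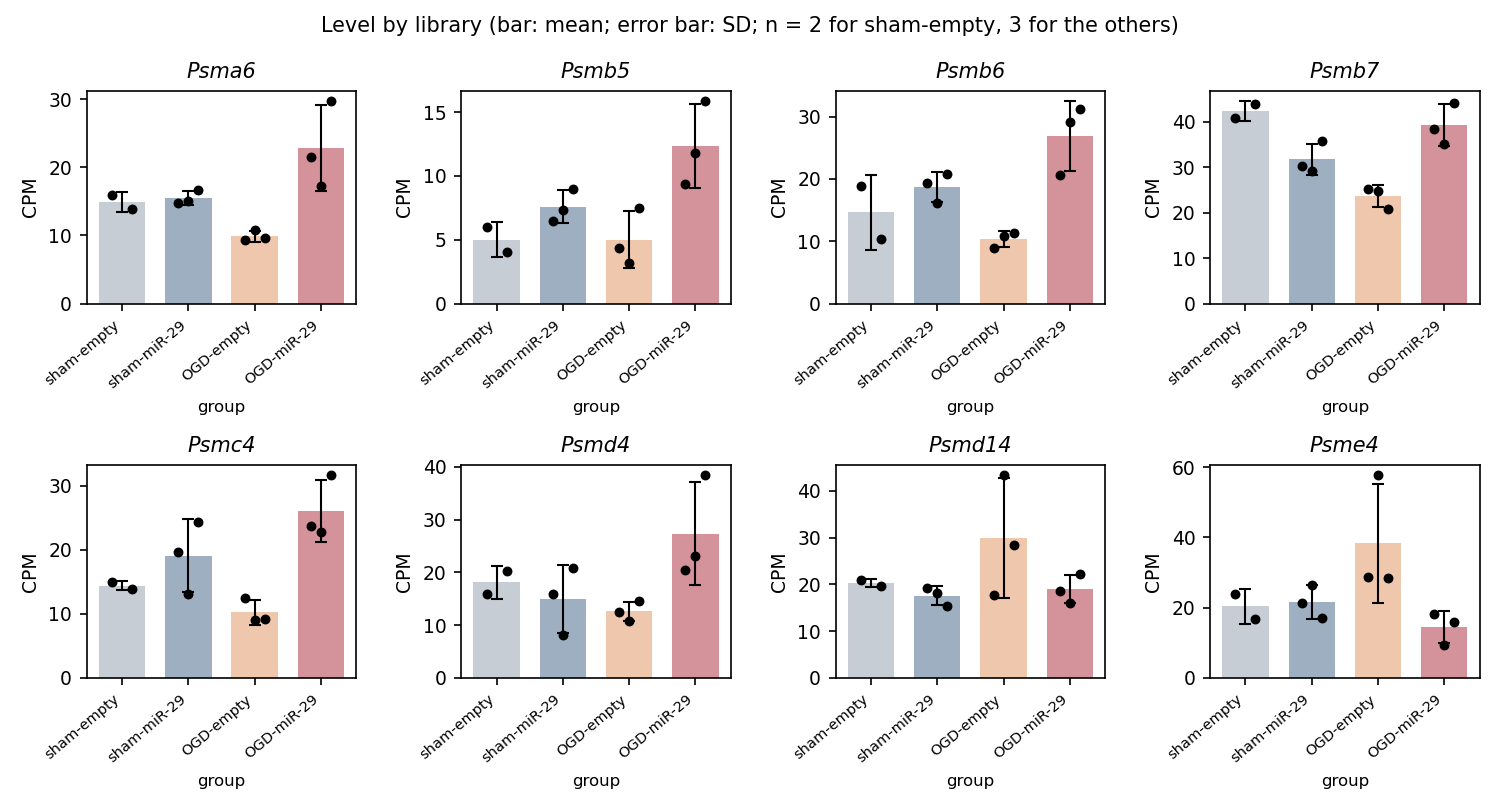
CPM of 8 proteasome genes by group (bars are means, error bars SD, dots libraries; n = 2 for sham-empty and 3 for the others). The dots of the OGD-miR-29 group lie above those of OGD-empty for Psma6, Psmb5, Psmb6, Psmb7, Psmc4 and Psmd4, overlap them for Psmd14 and lie below them for Psme4.

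Psmb4 read 31, 23.5 and 29.5 CPM in OGD-empty and 50.7, 48.4 and 70.7 CPM in OGD-miR-29, against 29.8 and 41.1 CPM in sham-empty and 31.5, 30 and 46.8 CPM in sham-miR-29. It rose by 1.00 ± 0.23 (adjusted p = 0.00259), and Pogz, which shares its region, by 1.25. Psmb1, which has no annotated neighbour, held 16.4, 22.6 and 17.7 CPM in OGD-empty and 31.6, 34.3 and 30.3 CPM in OGD-miR-29 (0.78 ± 0.22, adjusted p = 0.0109). Its sham libraries ranged from 21.9 to 35.3 CPM and overlapped both OGD groups. Psmb3 was higher at 0.60 (adjusted p = 0.0373), and Psmb2 read 0.42 (adjusted p = 0.232). Psmb10, the immunoproteasome counterpart of Psmb7, was scarce: 3.24, 4.06 and 2.14 CPM in OGD-empty and 6.25, 5.51 and 5.77 CPM in OGD-miR-29. With sham values of 4.97 and 4.63 CPM under empty virus and 4.17, 2.31 and 4.89 CPM under miR-29, only 4 to 34 reads per library lay behind them. Its change of 0.87 ± 0.34 was just inside the threshold (adjusted p = 0.0488).

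Shown are the promoters of the catalytic genes Psmb5 and Psmb6 and of Psme4, the 1 gene called lower between the OGD groups. They were chosen because they hold the letters of the antioxidant response element, the site bound by the proteasome gene regulators Nfe2l1 and Nfe2l2. Each spans 250 bases before to 50 after the start in RefSeq (GRCm38.p6), read 5′ to 3′ on the gene's strand. Capitals mark the match to TGACNNNGC on either strand. The intervals are chr14:54617946-54618245 (minus strand) for Psmb5, chr11:70525107-70525406 (plus) for Psmb6 and chr11:30771525-30771824 (plus) for Psme4.
Psmb5: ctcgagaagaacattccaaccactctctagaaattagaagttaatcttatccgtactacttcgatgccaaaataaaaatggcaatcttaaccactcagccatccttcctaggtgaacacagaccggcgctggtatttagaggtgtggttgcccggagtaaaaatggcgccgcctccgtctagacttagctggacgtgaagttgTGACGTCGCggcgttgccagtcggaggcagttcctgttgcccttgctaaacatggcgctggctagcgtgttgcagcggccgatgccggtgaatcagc
Psmb6: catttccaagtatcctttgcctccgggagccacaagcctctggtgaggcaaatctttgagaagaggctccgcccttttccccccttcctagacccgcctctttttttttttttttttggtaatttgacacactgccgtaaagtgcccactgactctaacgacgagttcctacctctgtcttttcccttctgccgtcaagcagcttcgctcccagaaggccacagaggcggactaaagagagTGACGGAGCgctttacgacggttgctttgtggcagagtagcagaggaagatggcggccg
Psme4: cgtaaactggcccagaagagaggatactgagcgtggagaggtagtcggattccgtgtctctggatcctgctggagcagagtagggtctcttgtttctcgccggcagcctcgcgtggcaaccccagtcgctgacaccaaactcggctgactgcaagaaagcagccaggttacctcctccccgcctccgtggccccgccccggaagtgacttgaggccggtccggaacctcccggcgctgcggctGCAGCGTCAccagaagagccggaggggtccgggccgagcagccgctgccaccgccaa
The match starts at -47 from the start in Psmb5 and at -9 in Psmb6 on the gene's strand, and at -7 in Psme4 on the opposite strand. Of the 35 proteasome genes with a promoter in the table, 6 held the letters (17.1%): Psmb5, Psmb6, Psmc6, Psmd9, Psmd12 and Psme4. Counted by promoter, it was 6 of the 38 promoters of these genes (15.8%) and 12.4% of all 32851 promoters. Among the 19 genes higher in OGD-miR-29 with a promoter 2 held them (10.5%), and among the other 16 it was 4 (25.0%). A match of letters is not a bound site.

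Of the 6 ATPases, 4 were higher and the class median of 1.01 was the highest among the classes with more than 1 gene. Psmc4 (chr7:28041707-28050101, minus strand), which has no annotated neighbour, read 12.5, 9.03 and 9.11 CPM in OGD-empty and 23.7, 22.8 and 31.7 CPM in OGD-miR-29. In sham cultures it was at 14.9 and 13.9 CPM with empty virus and at 19.7, 13.1 and 24.4 CPM with miR-29. Every OGD-empty value lay below every sham value, and the change of 1.28 ± 0.25 passed (adjusted p = 0.00113). Psmc3 read 15.8, 19.4 and 20.9 CPM in OGD-empty and 35.8, 36.6 and 44.7 CPM in OGD-miR-29 (1.08 ± 0.23, adjusted p = 0.00159). Its sham values, 19.9 and 24.3 CPM with empty virus and 23.1, 23.1 and 36.8 CPM with miR-29, overlapped both. Its neighbour Slc39a13, a zinc transporter gene with 1.05 times its count, changed by 1.24. Psmc5 (1.15, adjusted p = 0.00337) and Psmc1 (0.93, adjusted p = 0.00614) were higher too, beside Smarcd2 at 1.18 and Nrde2 at 0.59 in their regions. Psmc2 and Psmc6, partners in the same ATPase ring, stood at 0.25 and -0.12 and did not pass.

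The non-ATPases were mixed, with 5 of 13 higher and a class median of 0.47. Psmd8, a lid subunit, read 13, 10.8 and 13.4 CPM in OGD-empty and 25.9, 27.6 and 20.7 CPM in OGD-miR-29 (0.99 ± 0.23, adjusted p = 0.00314). Its sham values were 30.8 and 20.3 CPM with empty virus and 24.6, 19.6 and 27.3 CPM with miR-29, so OGD-empty alone was low and the other groups overlapped. Ggn, with 1.04 times the count of Psmd8, changed by 1.17. Psmd13, also of the lid, held 15.9, 12.6 and 12.3 CPM in OGD-empty and 26.5, 22.4 and 30.3 CPM in OGD-miR-29 (0.92 ± 0.24, adjusted p = 0.00618). Its sham libraries read 21.9 and 18.5 CPM with empty virus and 17.4, 19.2 and 29.6 CPM with miR-29, all above OGD-empty. The neighbours of Psmd13, Sirt3 with 1.29 times its count and Cox8b with 0.90 times, changed by 0.94 and 1.19. Psmd4, a ubiquitin receptor with no annotated neighbour, read 12.5, 10.8 and 14.5 CPM in OGD-empty and 20.4, 23.2 and 38.5 CPM in OGD-miR-29 (1.09 ± 0.30, adjusted p = 0.00943). Sham values of Psmd4 ran from 8.07 to 20.8 CPM and overlapped both OGD groups. Psmd2 (0.60, adjusted p = 0.0312) and Psmd6 (0.74, adjusted p = 0.0344) completed the 5. Psmd7, a partner of Psmd14 that also has no annotated neighbour, read 3.4, 3.61 and 7.5 CPM in OGD-empty and 5.33, 6.3 and 7.21 CPM in OGD-miR-29 and did not pass (0.47, adjusted p = 0.351).

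Psmd14 encodes the deubiquitinase that removes ubiquitin chains before degradation, and its pattern ran against most of its class without passing the test. It read 17.8, 43.4 and 28.4 CPM in OGD-empty and 18.6, 16.1 and 22.1 CPM in OGD-miR-29, with 20.9 and 19.7 CPM in sham-empty and 19.3, 18.1 and 15.4 CPM in sham-miR-29. Replicates 2 and 3 of OGD-empty were above all other libraries and replicate 1 was not. The log2 fold change was -0.62 ± 0.27 (adjusted p = 0.0698).

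The activators diverged most. Psme4 (chr11:30771726-30880361, plus strand) encodes PA200, a large nuclear activator of the core. It was the only proteasome gene called lower in OGD-miR-29 against OGD-empty. It read 28.6, 57.8 and 28.4 CPM in OGD-empty and 18.2, 9.45 and 15.9 CPM in OGD-miR-29, a change of -1.35 ± 0.30 (adjusted p = 0.00289). Sham values were 23.9 and 16.8 CPM with empty virus and 21.2, 26.5 and 17 CPM with miR-29, so all OGD-empty libraries exceeded every sham library, most of all replicate 2. Psme1 and Psme2 encode the PA28 alpha and beta subunits, which interferon induces, and lie next to each other: Psme1 was higher (1.28, adjusted p = 0.0134), and Psme2 read 0.82 (adjusted p = 0.0796). Psme1 had only 17, 4 and 3 reads in OGD-empty. Emc9, in the same region with 0.92 times the count of Psme1, changed by 1.11. Psme2b, a copy of Psme2, was higher at 1.89 ± 0.44 (adjusted p = 0.00303), from 0.927, 1.81 and 2.14 CPM in OGD-empty to 4.23, 6.7 and 5.29 CPM in OGD-miR-29. Its sham values were 1.99 and 4.63 CPM with empty virus and 3.03, 2.69 and 1.8 CPM with miR-29. The counts of Psme2b were identical in all 11 libraries to those of 9930111J21Rik1, a gene of the same region, so this value cannot be given to Psme2b itself. Psme3 read 0.54 and the inhibitor gene Psmf1 -0.51, and neither passed. Psmg4, an assembly chaperone, read 12.5, 7.23 and 6.43 CPM in OGD-empty and 11, 9.85 and 6.25 CPM in OGD-miR-29. With 6.96 and 8.68 CPM in sham-empty and 14, 10.4 and 9.26 CPM in sham-miR-29 its groups overlapped, and the change was -0.01 ± 0.29 (adjusted p = 0.983).

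The difference between the OGD groups was present on each dissection day. Between same-day libraries the median log2 difference of the 41 genes, OGD-miR-29 minus OGD-empty, was 0.62, 0.59 and 1.02 on the 3 days, with 37, 30 and 34 of 41 genes above 0. Over all genes the day medians were -0.00, 0.05 and -0.00. In 26 genes OGD-miR-29 was above OGD-empty on all 3 days and in 1 below it, where 32.3% and 32.0% of all genes were. Replicate 3 of OGD-miR-29 was the highest of the 11 libraries for 24 of the 41 genes, against 2036 of all 12119 genes. Without that library 13 of the 40 genes tested were higher and 1 lower, 14 in place of 23, where 12.2% and 14.2% of all genes were, and the median was 0.63. Across 20 other fits (other tools, normalisations and covariates, or 1 library left out), 12 of the 23 called genes passed in every one: Psma6, Psma7, Psmb5, Psmb6, Psmb7, Psmc1, Psmc3, Psmc4, Psmc5, Psmd8, Psmd13 and Psme4.

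Gene length moved with this comparison. Across 11880 other genes the Spearman correlation between annotated span and log2 fold change was -0.58, and across the 41 proteasome genes it was -0.70 (genes share libraries and are not independent). Proteasome genes are short, with a median span of 13.2 kb against 22.99 kb for all annotated genes of the table. Within length ranges the medians of the proteasome genes and of all others were 1.28 and 0.53 up to 5 kb (7 genes), 0.99 and 0.48 from 5 to 10 kb (9 genes), and 0.60 and 0.32 from 10 to 20 kb (10 genes). They were 0.39 and 0.06 from 20 to 40 kb (8 genes), 0.44 and -0.31 from 40 to 80 kb (4 genes), and -0.62 and -0.97 above 80 kb (3 genes). The proteasome median was the higher one in all 6 ranges, and Psme4, the gene called lower, was the longest of the 41 at 108.64 kb.

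**Figure D4:**
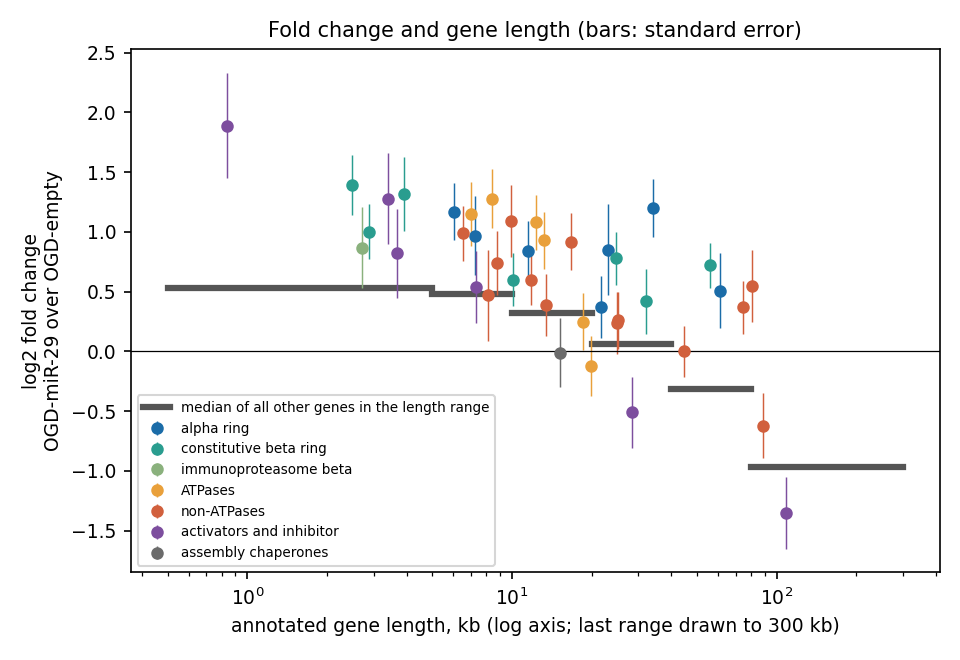
Log2 fold change in OGD-miR-29 over OGD-empty of each proteasome gene (dots coloured by class; bars are standard errors) against annotated gene length in kb on a log axis, with the median of all other genes in each length range (grey bars). Values fall with length among proteasome genes and among the others, and most dots lie above the grey bar of their range.

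With the length trend removed from every library and dissection day as a block, 17 proteasome genes were higher and 1 lower, where 11.9% of all genes were higher and 12.5% lower. The median was then 0.50. Of the 22 higher genes 14 passed again, and the largest were Psma6 at 1.23 (adjusted p = 0.000191), Psmb7 at 0.98 (adjusted p = 0.000293) and the ambiguous Psme2b at 1.37. Psma1, Psma4, Psmb3, Psmb4, Psmb10, Psmd2, Psmd6 and Psme1 no longer passed, and Psma2, Psmd1 and Psmd9 passed in their place. Psme4 stayed lower at -0.69 (adjusted p = 0.0227). By class, 3 alpha, 4 constitutive beta, 4 ATPase and 5 non-ATPase genes and 1 activator were higher. Before this correction 17.2% of all genes tested were higher. Of the 15 genes without a measured neighbour of at least 0.5 times their count 7 were then higher. Of the 4 with no annotated neighbour in the window 3 were (Psmb1, Psmc4 and Psmd4).

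Under empty virus, OGD against sham went the other way for most members. Of the 41 genes 33 had values below 0, with a median of -0.42 against 0.02 over all genes. At an unadjusted p under 0.05 there were 11 of them, beside 2876 of all 12119 genes. By the adjusted test only 2 were lower and 0 higher (3.61% and 1.48% of all genes). The 2 were Psmb7 (-0.84 ± 0.22, adjusted p = 0.0362) and Psmd8, which fell by 1.00 ± 0.28 (adjusted p = 0.0425), whose values by library are given above. The alpha ring had the lowest class median at -0.81 with all 7 values below 0, from -0.98 in Psma4 to -0.23 in Psma5. The 7 constitutive beta values were also below 0, with a median of -0.51, while the ATPases and non-ATPases had medians of -0.22 and -0.10. Psme4 had the highest value, 0.93 ± 0.37 (adjusted p = 0.138). In 19 genes both sham-empty libraries lay above all OGD-empty libraries and in 1 below them, where 21.6% and 22.0% of all genes did so. Length moved with this comparison too. Other genes had medians of -0.42 up to 5 kb, -0.33 from 5 to 10 kb and -0.20 from 10 to 20 kb, beside -0.47, -0.55 and -0.35 for the proteasome genes. With the length trend removed the median of the 41 genes was -0.15, and -0.23 with dissection day as a block. The calls rested on single libraries: neither gene passed without replicate 1 or 2 of sham-empty, replicate 1 of sham-miR-29, replicate 2 or 3 of OGD-empty or replicate 1 of OGD-miR-29, and 1 of them passed without replicate 1 of OGD-empty. With dissection day as a block Psmd2 was lower as well (adjusted p = 0.0422), 3 genes where 5.61% of all genes were lower and 5.69% higher. With the length trend removed 1 gene was lower without the block, against 1.75% of all genes (0.755% were higher). With the block Psmb7 (-1.09) and Psma2 (-1.25) were lower, against 2.75% of all genes (1.66% were higher).

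In sham cultures no proteasome gene differed detectably between the viruses at this depth. Between sham-miR-29 and sham-empty 0 of 41 genes passed, as did 0.00% of all genes tested, and the median was -0.03. At an unadjusted p under 0.05 there were 2 genes in edgeR, 0 in DESeq2 and 1 in limma-voom. Over all 12119 genes tested, edgeR had 405. The alpha ring median was -0.56 and that of the ATPases 0.28. Psma3, an alpha subunit, had the largest fall in value at -0.80 (adjusted p = 1).

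Under the miR-29 virus OGD left proteasome genes slightly above sham without a call. In OGD-miR-29 against sham-miR-29, 0 of 41 genes passed where 0.0165% of all genes were higher, 35 values were above 0 and the median was 0.31 against -0.00 over all genes. At an unadjusted p under 0.05 there were 12 genes in edgeR, 6 in DESeq2 and 10 in limma-voom. Over all 12119 genes tested, edgeR had 1111. In 11 genes the groups did not overlap with OGD-miR-29 above and in 1 below, against 8.19% and 8.69% of all genes. Psma5 had the highest value, 1.17 (adjusted p = 0.452), and the same-day medians were 0.24, 0.28 and 0.36.

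**Figure D5:**
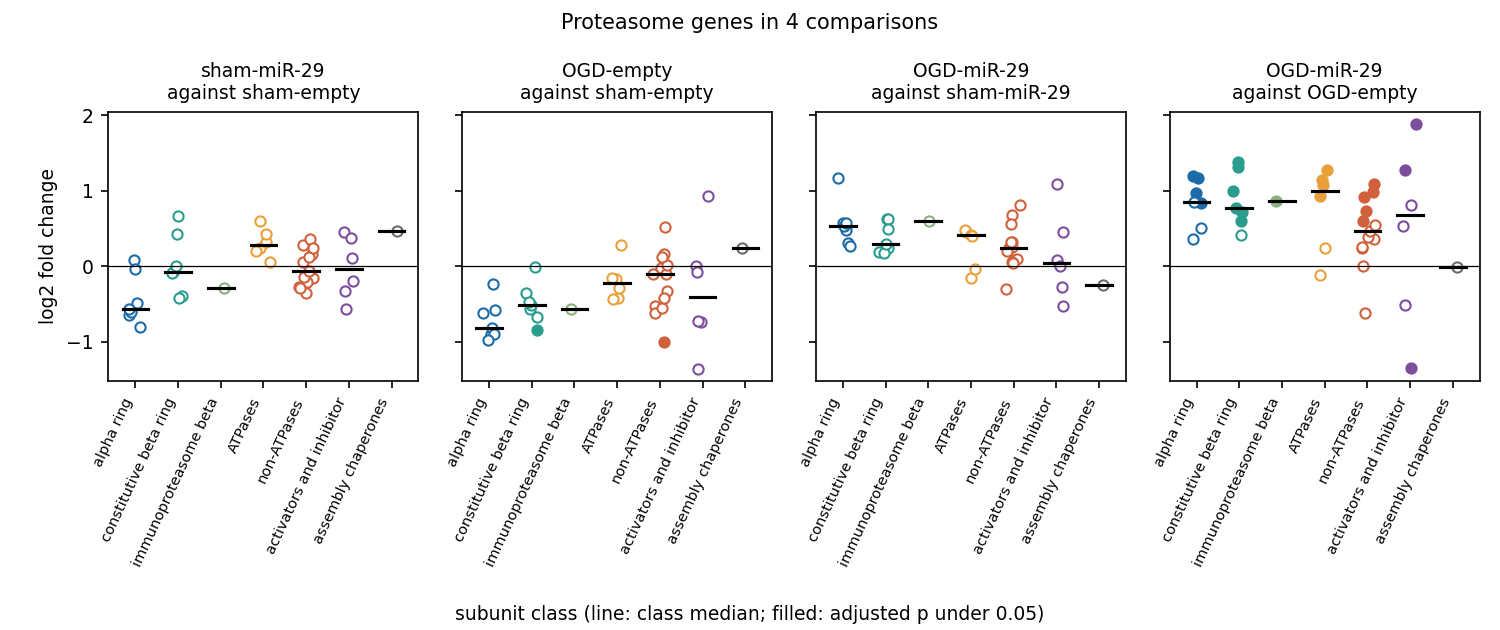
Log2 fold change of each proteasome gene by subunit class in 4 comparisons (circles; filled where the adjusted p was under 0.05; black lines are class medians). Sham-empty serves in the 2 left panels and OGD-miR-29 in the 2 right ones; filled circles number 0, 2, 0 and 23 from left to right.

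The difference between these OGD effects was tested as an interaction, the OGD effect under miR-29 minus that under empty virus. Psmb7 (1.13 ± 0.29, adjusted p = 0.0241), Psma1 (1.48 ± 0.39, adjusted p = 0.0270) and the ambiguous Psme2b (2.45 ± 0.74, adjusted p = 0.0451) were higher, 3 of 41 genes (7.32%) where 4.72% of all genes were and 3.66% were lower. The median was 0.81 for the proteasome genes and -0.03 for all genes. At an unadjusted p under 0.05 there were 18 of the 41, beside 3379 of all 12119 genes. Other genes had medians of 0.55 up to 5 kb, 0.44 from 5 to 10 kb and 0.29 from 10 to 20 kb, and with the length trend removed the median of the proteasome genes was 0.49. With dissection day as a block 12 passed: the same 3, Psma2, Psma4, Psma6, Psma7, Psmb4, Psmd2, Psmd4 and Psmd8 with positive values, and Psme4 with a negative one (-1.53, adjusted p = 0.0445). In that fit 7.33% of all genes were higher and 8.03% lower. Once gene length was also corrected for, 5 passed with the block, Psma1, Psma2, Psma6, Psmb7 and Psmd4, all higher (4.45% of all genes were). Without the block Psmb7 alone was higher after that correction (2.81% of all genes; 1.93% were lower). The count rested on single libraries. It fell to 0 without replicate 2 of sham-empty, replicate 1 or 2 of sham-miR-29 or replicate 3 of OGD-miR-29, and to 1 without replicate 1 of sham-empty. It rose to 5, 6 and 7 without replicate 3 of OGD-empty, replicate 3 of sham-miR-29 and replicate 1 of OGD-miR-29, where 8.37%, 10.7% and 8.93% of all genes were called in either direction.

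Against the sham-empty cultures, OGD-miR-29 had 0 of 41 genes called, as did 0.00% of all genes, with a median of 0.31. At an unadjusted p under 0.05 there were 7 genes (6 in DESeq2 and 6 in limma-voom). Over all 12119 genes tested, edgeR had 841, and the median was -0.01. The highest values were those of Psmb5 (1.30), Psmc5 (1.00) and Psmb6 (0.92), each with an adjusted p of 0.709. In the authors' deposited table of OGD-empty against sham-empty, 0 of the 41 genes had an FDR under 0.05, where 6 of all 12145 rows did. Of the 41 log2 values 30 were below 0, and the median of the 41 was -0.32 against 0.04 over all rows. Psme2b had the smallest p there (0.0166, FDR 0.250). The authors' deposited table of OGD-miR-29 against sham-empty likewise had 0 at that FDR, where 2 of all 12145 rows passed. There 34 values were above 0, with a median of 0.28 against 0.03 over all rows. These comparisons share the sham-empty libraries.

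Genes that work with the proteasome were read from lists by role, first in OGD-miR-29 against OGD-empty. There 17.2% of all genes tested were higher and 19.9% lower. Of 5 partners 2 were higher and 1 lower, with a median of -0.17. Pomp, the chaperone that matures the core, rose by 1.17 (adjusted p = 0.00542), from 8.65, 4.52 and 5.36 CPM to 13.8, 12.6 and 19.7 CPM. Shfm1, the symbol here for the small lid subunit Sem1, was higher at 0.99 (adjusted p = 0.0278), with 8.8, 8.58 and 9.65 CPM in OGD-empty and 12.9, 10.6 and 32.2 CPM in OGD-miR-29. Replicate 3 set much of that value. AI314180, an older symbol of the proteasome adaptor Ecpas, fell by 1.12 on the log2 scale (adjusted p = 0.000966), from 44.9, 60.1 and 45 CPM to 26.3, 17.3 and 24.5 CPM. The polyubiquitin gene Ubb was higher (0.93, adjusted p = 0.00369), with 24.2, 23 and 18.8 CPM in OGD-empty and 32.9, 47.7 and 48.1 CPM in OGD-miR-29, which did not overlap.

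Of 13 E1 and E2 enzymes of ubiquitin transfer, 1 was higher (Ube2g2, 0.90, adjusted p = 0.0214) and 2 were lower (Ube2k, -1.42, adjusted p = 0.000797, and Uba6, -0.93, adjusted p = 0.0257). Rad23b (0.67, adjusted p = 0.00819) and Ubqln4 (0.71, adjusted p = 0.0238), which encode shuttles that carry ubiquitinated proteins to the proteasome, were higher. Among 7 regulators of proteasome genes 0 were higher and 2 lower. Nfe2l2, which encodes the oxidative stress factor NRF2, changed by -1.34 (adjusted p = 0.0105), and Akirin2, for a factor of proteasome import into the nucleus, by -0.65 (adjusted p = 0.0398). Nfe2l2 counts were low: 9.11, 7.23 and 5.36 CPM in OGD-empty, 3.67, 2.76 and 1.92 CPM in OGD-miR-29, 4.17, 4.23 and 4.11 CPM in sham-miR-29, and 2.98 and 0 CPM in sham-empty. It was also the 1 listed gene called in OGD-empty against sham-empty, higher with an adjusted p of 0.0309, and no fold is given over so few reads. Nfe2l1, the main factor that restores proteasome gene expression when the proteasome is inhibited, read 0.12 (adjusted p = 0.645). In the interaction, AI314180 (-1.17, adjusted p = 0.0382), Ube2k (-1.49, adjusted p = 0.0320) and Nfe2l2 (adjusted p = 0.0241) were lower. Of the 4 ubiquitin genes 1 was higher there (adjusted p = 0.0275), and all 4 values were above 0. Over all genes tested, 4.72% were higher in the interaction and 3.66% lower. None of the 3 interferon and antigen presentation genes or the 6 downstream peptidases passed.

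Markers of cell types differed between the same OGD groups. Over all genes tested 19.9% were lower and 17.2% higher. Of 8 neuronal markers 5 were lower and 1, Tubb3, was higher, with a median of -0.70. Their summed level was 1030 to 1280 CPM in OGD-empty and 583 to 757 CPM in OGD-miR-29, and none was at 0. Of 5 astrocyte markers 0 passed, with summed levels of 37.9 to 52.7 and 44.2 to 45.4 CPM. In the oligodendrocyte lineage 1 of 3 was higher (Sox10), with sums of 8.58 to 9.73 and 9.62 to 14.2 CPM. Of 3 microglial markers 1 was higher (Aif1, 1.54, adjusted p = 0.00512), with sums of 18.8 to 28 and 32.1 to 36.1 CPM. Neither of the 2 fibroblast and mural cell markers passed, with sums of 5.36 to 9.03 and 5.88 to 8.65 CPM. In sham-empty the neuronal sum was 709 to 861 CPM, below OGD-empty. Between the OGD groups, genes outside the proteasome had a median of 0.53 up to 5 kb and of -0.97 above 80 kb. The part of gene length in these marker values, and of the markers in the proteasome result, was not tested.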

How the data were processed

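Total RNA depleted of ribosomal RNA was sequenced from 12 cultures. The authors deposited read counts per gene and, for each OGD group against sham-empty, a table of log2 fold changes, log2 CPM, a likelihood ratio score, p-values and FDR. STAR 2.5.0a, featureCounts 1.4.3-p1, edgeR and mm10 are named, without roles, per the submitters' processing notes. The deposited counts can hold 1 read under several genes (mt-Tf 110844 and mt-Rnr1 110849 in the first library). From the deposited counts of 11 libraries, edgeR 4.0.16 fitted 4 group means (TMM, filterByExpr, robust quasi-likelihood F test) to 12119 genes; p was adjusted by Benjamini-Hochberg over all of them, with calls at 0.05, and SEs come from the F statistic. CPM uses TMM-scaled totals with mitochondrial rows. The fit was also run on simulated data, which held no shared counting regions and no day effect, and no result given here rests on that run. Of the symbols, 11356 matched GENCODE M21 directly, 588 by an older symbol and 201 not. The replicate number marks a dissection day per the labels, and so pairs the samples. The main fit left the day out, and fits with it as a block were alternatives. Deviations from group means correlated at -0.09 to 0.23 between same-day libraries of different groups (median 0.01). Between other libraries of different groups the range was -0.24 to 0.20 (median 0.00). Such deviations cancel within groups of 2 or 3 libraries, so they cannot decide whether the day had an effect. For the length trend, a lowess curve (span 0.3) of log2 ratio on log span in each library entered as an offset. DESeq2 1.42.0 and limma 3.58.1 served as alternatives.

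Values by library are given for the 2 genes of each class with the smallest p in OGD-miR-29 against OGD-empty, for Psmb5, Psmb6, Psmb7 and Psmd14, for genes called in another comparison, and for those that ran against their class and passed. Psmb1, Psmd4 and Psmd7 were added from the annotation, as genes without an annotated neighbour. Listed partners are named where called, at most 3 a list; some listed genes are not reported here. The genes and lists were chosen with earlier results of these data known.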

Additional observations from a re-analysis of the deposited data

Results flagged for a closer look

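In 3 of 41 proteasome genes (7.32%) the OGD effect was higher under miR-29 by the interaction test (edgeR, adjusted p under 0.05), against 4.72% of all genes higher and 3.66% lower. Psmb7, the trypsin-like catalytic subunit, had an OGD effect that was 1.13 higher on the log2 scale under miR-29 than under empty virus. For Psma1, an alpha subunit, the difference was 1.48, and 1 of the 2 sham-empty libraries (26.6 CPM) was far above the other (13.9 CPM). For Psme2b it was 2.45, on counts identical to those of 9930111J21Rik1. With the length trend removed Psmb7 passed again (1.42, adjusted p = 0.0039), while Psma1 (adjusted p = 0.0606) and Psme2b (adjusted p = 0.133) did not. No group had enough libraries to test for an outlying sample.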

How the results depend on the processing

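Of the 6 comparisons, no median of the proteasome genes and no count with a call changed direction in the 20 alternative fits of each, except the sham-miR-29 against sham-empty median near 0 (-0.03; -0.13 to 0.08 without 1 library). Counts of called genes, leaving out 1 library each, ran from 14 to 23 in OGD-miR-29 against OGD-empty, 0 to 2 in OGD-empty against sham-empty and 0 to 7 in the interaction, and the medians from 0.63 to 0.76, -0.45 to -0.32 and 0.68 to 0.95. The median of OGD-miR-29 against sham-miR-29 ran from 0.22 to 0.52. With the length trend removed the median in OGD-miR-29 against OGD-empty was 0.51 (0.50 with the replicate block). In OGD-empty against sham-empty it was -0.15 (-0.23), with Psmb7 called (Psmb7 and Psma2 with the block). In the interaction it was 0.49 (0.61) with 1 gene called (5), and in OGD-miR-29 against sham-empty 0.18 with the block. The replicate block alone gave 12 calls in the interaction, added Psmd2 in OGD-empty against sham-empty and changed no other call. In OGD-empty against sham-empty limma-voom called 1 gene and a fit of the compared groups alone 0. Over genes alone in their region, an alternative chosen after seeing the data that keeps 4 proteasome genes, the counts were 3 in OGD-miR-29 against OGD-empty (median 0.94), 0 in OGD-empty against sham-empty and 0 in the interaction, and the sham median was -0.17. The causes were not tested. Median counts of 9 to 59 per gene and library limit the power for low genes such as Psmb10 and Psme2b.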
